A study of Mus musculus with 6 samples.

Results

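A set of 10 genes was named as markers of the endothelial to mesenchymal transition (EndMT) and followed through 6 RNA-seq libraries of mouse endothelial cells in which Dot1l, the H3K79 methyltransferase, was targeted for deletion or raised. The 10 members, of 24421 genes in the count table, were listed by name, with no threshold on a measured value. They are the transcription factors Snai1, Snai2, Twist1, Zeb1 and Zeb2, the smooth muscle contractile genes Acta2, Tagln and Cnn1, the intermediate filament gene Vim and the cadherin gene Cdh2. For each, the level in CPM (the count per 1000000 reads of the library) and the ratio of the changed over the control library in 3 pairs were taken. All 10 had a row in the table, and their levels ranged widely: Vim was among the most abundant transcripts of every library, whereas Cnn1 stayed at or below 7 reads.

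In EndMT, endothelial cells loosen their junctions and take up features of mesenchymal cells such as motility, contractile fibers and matrix production. Factors of the Snail, Twist and Zeb families are the classical drivers, and most of them repress junction genes, including cadherins, through E-box sequences. Signals of the TGF-beta family induce these factors, and contractile genes such as Acta2 are activated by serum response factor (SRF) through CArG boxes. During development the program is best known from the endocardial cushions of the heart.

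Each group was 1 library, so no test between groups was possible and every interval below covers counting error only, at 95% and without the spread between animals or cultures. The skin pair came from BECs (blood vascular endothelial cells) of E15.5 embryos. Both genotypes carried the floxed Dot1l 2f/2f alleles, the control (Cont) without Cre and the conditional knockout (cKO) with Tie2-Cre, although GEO's labels call the control wild type. Tie2-Cre is active in endothelium and also in blood lineages. RNA of 2 to 3 embryos was pooled per library, after depletion of cells with F4/80 or CD45 and removal of Lyve1-positive cells. A figure legend of the paper also lists the BEC marker CD31 as positive in the isolation, a step that its methods text does not describe. The culture pairs were the embryonic yolk sac BEC line CRL-2581 and the embryonic dermal LECs (lymphatic endothelial cells) C57-6064L. The overexpression (OE) cells had received a lentivirus with dCas9-VP64 and guide RNAs to the Dot1l promoter, the controls an empty lentivirus, and cells of 2 to 3 flasks were pooled for each library.

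Libraries held 8863349 to 31032461 reads, and the skin libraries were the shallowest. The ribosomal precursor Rn45s took a share of 5.91% in the control and 10.9% in the OE library of the BEC pair, beside 0.0534% to 0.570% in the other 4 libraries. It enters the totals behind CPM. Dot1l stood at 86.0 CPM in the Cont and 85.2 CPM in the cKO skin library, so its total count did not separate this pair. A count over the whole gene does not look at the floxed part alone. The authors report a check of the Dot1l knockout by RT-qPCR, without replicates. The second library is called the library labelled cKO throughout. In culture Dot1l was 2.78-fold higher in OE-BECs and 2.30-fold higher in OE-LECs. All 20 endothelial markers had reads in every library. Prox1, the master regulator of lymphatic identity, had 0 reads in the 4 cultured libraries, the LEC libraries included, and 1304 and 883 reads in the skin BEC libraries labelled Cont and cKO. The lymphatic gene Pdpn had 167 and 457 reads in the skin libraries, 1 read in OE-BECs and 0 in the other cultured libraries. The lymphatic genes Lyve1 and Flt4 had reads in all 6 libraries. Lyve1 stood at 1027 CPM in Cont skin and 1801 CPM in the library labelled cKO, although Lyve1-positive cells had been removed.

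RefSeq promoter windows in the GRCm38.p6 assembly ran from 250 bases before to 50 bases after a listed transcript start. Windows of 6 of the 10 members (Snai1, Twist1, Zeb2, Acta2, Cnn1 and Vim) were searched for motifs. No window was at hand for Snai2 and Tagln. Zeb1 and Cdh2 were left out of the search, so their promoters were not examined. The 3 windows shown belong to the gene that passed 2-fold in a pair (Snai1) and to the pair of genes with clear levels in skin and nearly none in culture (Twist1 and Acta2). They lie at chr2:167537945-167538244 on the plus strand, chr12:33957421-33957720 on the plus strand and chr19:34255324-34255623 on the minus strand. Capitals mark the E-box CAGGTG read on either strand and CArG-like stretches, here CC, then 6 bases of which at least 5 are A or T, then GG.
Snai1: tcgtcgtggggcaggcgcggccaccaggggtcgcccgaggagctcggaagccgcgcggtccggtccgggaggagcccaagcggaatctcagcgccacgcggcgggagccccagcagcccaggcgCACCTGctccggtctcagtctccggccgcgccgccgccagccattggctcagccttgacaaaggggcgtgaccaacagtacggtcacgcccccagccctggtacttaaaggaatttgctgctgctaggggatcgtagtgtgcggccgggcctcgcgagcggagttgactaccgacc
Twist1: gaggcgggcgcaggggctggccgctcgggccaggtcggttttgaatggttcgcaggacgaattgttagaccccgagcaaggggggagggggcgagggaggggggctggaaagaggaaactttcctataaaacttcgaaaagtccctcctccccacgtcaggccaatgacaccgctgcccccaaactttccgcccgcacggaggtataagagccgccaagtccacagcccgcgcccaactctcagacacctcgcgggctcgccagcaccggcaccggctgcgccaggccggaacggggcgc
Acta2: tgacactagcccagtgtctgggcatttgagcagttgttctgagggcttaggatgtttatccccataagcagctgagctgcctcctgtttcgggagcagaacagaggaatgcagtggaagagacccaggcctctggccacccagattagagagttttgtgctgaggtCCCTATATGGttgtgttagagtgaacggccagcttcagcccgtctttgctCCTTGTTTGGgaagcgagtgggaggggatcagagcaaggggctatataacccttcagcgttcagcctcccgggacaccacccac
The Snai1 window held 1 such E-box, CACCTG, which began 126 bases before the listed start. Among all 32851 windows searched, 20.2% held this motif. The Acta2 window held 2 CArG-like stretches, CCCTATATGG at 84 bases and CCTTGTTTGG at 34 bases before the listed start, and 9.98% of all windows held at least 1. A CArG box with A or T at all 6 middle bases was in none of the windows of the 6 members and in 1.63% of all windows. None of the motifs was in the Twist1, Zeb2, Cnn1 or Vim windows. CG dinucleotides numbered 34 in the Snai1 window, 27 in the Twist1 window and 6 in the Acta2 window.

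Snai1 (chr2:167538195-167542814, plus strand in mm10), which encodes the zinc finger repressor Snail, was the only member past 2-fold in any pair, and it was lower. It had 38 reads in the Cont skin library and 18 in the library labelled cKO, or 4.29 and 1.62 CPM. The log2 ratio of the normalized counts was -1.46 (95% counting interval -2.35 to -0.61), a 2.74-fold lower level whose interval also holds changes smaller than 2-fold. In culture Snai1 was more abundant, at 16.1 CPM in the control and 15.7 CPM in the OE library of the BEC pair, and at 20.3 and 18.9 CPM in the LEC pair. All 4 cultured libraries lay above both skin libraries, and neighbors among the 4 overlapped in their intervals. The log2 ratio was 0.01 (-0.25 to 0.27) in the BEC pair and -0.08 (-0.26 to 0.09) in the LEC pair. The control cultured BECs had 3.75 times the CPM of the control skin BECs, a contrast in which tissue of origin and culture cannot be told apart.

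Snai2 (chr16:14705852-14709385, plus strand), the gene of the related repressor Slug, was lower in the skin pair and higher in both overexpression pairs, each time by less than 2-fold. Its level was 18.3 CPM in Cont skin and 10.8 CPM in the library labelled cKO, and the log2 ratio was -0.81 (-1.16 to -0.46). In BECs it was 13.9 CPM in the control and 18.7 CPM with Dot1l overexpression, a log2 ratio of 0.47 (0.21 to 0.73). In LECs it was 20.7 CPM in the control and 32.7 CPM with overexpression, a log2 ratio of 0.68 (0.52 to 0.83). OE-LECs were the highest of the 6 libraries, with an interval clear of the next. From there down to the library labelled cKO, each library overlapped with its neighbor in order.

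Twist1 (chr12:33957671-33959829, plus strand), a basic helix-loop-helix factor of cranial and limb mesenchyme, was detected in the skin libraries and in none of the cultured ones. It had 126 reads in Cont skin and 107 in the library labelled cKO, or 14.2 and 9.65 CPM, and a log2 ratio of -0.61 (-0.999 to -0.23). Each cultured library had 0 reads, which allows a level of up to 0.0967 CPM in OE-LECs and up to 0.215 CPM in OE-BECs, where a limit of 3 reads is used. Against that limit the control skin level was at least 83.8-fold higher than in control cultured BECs and at least 124-fold higher than in control LECs. No ratio could be given for either overexpression pair.

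The paired zinc finger and homeodomain repressors Zeb1 and Zeb2 ran in opposite directions in the skin and LEC pairs. Zeb1 (chr18:5591860-5775467, plus strand) had 207 CPM in Cont skin and 164 CPM in the library labelled cKO, then 105 and 96.3 CPM in the BEC pair and 68.0 and 58.4 CPM in the LEC pair, control first. By level the sources stood in the order skin, BEC line, LECs, and the lower member of each pair was the changed library. The log2 ratio was -0.39 (-0.49 to -0.30) in skin, -0.08 (-0.18 to 0.02) in BECs and -0.20 (-0.30 to -0.11) in LECs. Zeb2 (chr2:44983632-45117395, minus strand) had 513 and 622 CPM in skin, 71.5 and 104 CPM in the BEC pair and 53.5 and 62.4 CPM in the LEC pair, control first. All neighbors in the order of Zeb2 levels had separate intervals, and the changed library was the higher one of each pair. The log2 ratio was 0.22 (0.17 to 0.28) in skin, 0.58 (0.47 to 0.69) in BECs and 0.24 (0.14 to 0.34) in LECs. Control skin BECs had 7.18 times the Zeb2 CPM of control cultured BECs. Zeb2 shares 653 bases of exon with Zeb2os on the opposite strand, and Zeb2os had 40, 101, 3, 8, 10 and 31 reads from the Cont skin to the OE-LEC library. Whether the counting used strand was not clear from the sources used here, so reads of such partners cannot be told apart.

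**Figure D1:**
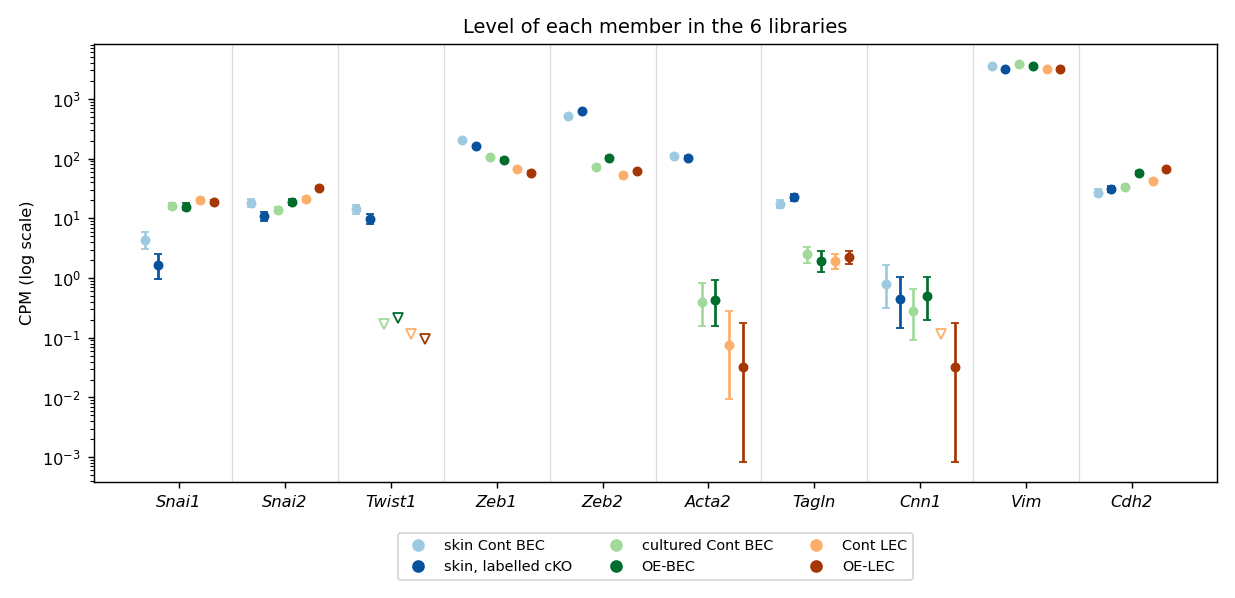
Level of each member in CPM (log axis) in the 6 libraries, with 95% exact Poisson counting intervals as bars and open triangles at the 3-read limit where a library had 0 reads. Acta2 and Twist1 stood at 104 to 112 CPM and 9.65 to 14.2 CPM in the skin libraries and below 0.5 CPM in culture, whereas Vim stayed between 3116 and 3825 CPM.

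Acta2 and Tagln separated skin from culture more than they separated any pair, whereas Cnn1 was near the counting limit everywhere. Acta2 (chr19:34241090-34255590, minus strand), smooth muscle alpha actin, had 996 and 1154 reads in the Cont skin library and the library labelled cKO, but 7 and 6 reads in the BEC pair and 2 and 1 reads in the LEC pair. In CPM these were 112 and 104 in skin and 0.396, 0.431, 0.0766 and 0.0322 in culture, where all intervals overlapped with their neighbors. Control skin was thus 284-fold above control cultured BECs, with a log2 ratio of 8.15 (7.10 to 9.47). The skin pair itself differed by a log2 ratio of -0.17 (-0.29 to -0.04). Per kilobase of exon, Acta2 ranked 670th of 23376 genes in Cont skin, so it was an abundant transcript there. In OE-BECs the log2 ratio was 0.16 with an interval of -1.69 to 1.96, and in LECs both libraries were under the 3-read limit.

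Tagln (chr9:45929619-45936058, minus strand), transgelin or SM22, had 17.5 CPM in Cont skin and 22.5 CPM in the library labelled cKO, from 155 and 249 reads. The log2 ratio was 0.31 (0.01 to 0.60), so the lower bound lay almost at no change. In culture Tagln was at 2.49, 1.94, 1.91 and 2.22 CPM from Cont BECs to OE-LECs, with overlapping intervals and log2 ratios of -0.32 (-1.07 to 0.40) in BECs and 0.23 (-0.31 to 0.79) in LECs. On the other strand Tagln shares 1241 of its 1988 bases of exon with the antisense gene Gm48529, which has no row in the count table, and 108 bases with Pcsk7. Antisense reads over Tagln could therefore not be told apart. Pcsk7 stayed between 38.6 and 45.7 CPM in the 6 libraries. Cnn1 (chr9:22099216-22109630, plus strand), the calponin of differentiated smooth muscle, had 7, 5, 5, 7, 0 and 1 reads in the same order of libraries. These were too few for a difference within any pair to be detectable at this depth. Between the control libraries, Cnn1 rested on 7 reads in skin, 5 in cultured BECs and 0 in LECs. The interval of the log2 ratio of CPM ended at -0.44 for control LECs over control cultured BECs. Their CPM intervals overlapped, however, at 0 to 0.141 in LECs and 0.0918 to 0.660 in BECs. For control skin over control LECs the interval of the log2 ratio began at 2.09. For control skin over control cultured BECs it held 0 (-0.39 to 3.48). Of the further contractile genes, the SRF coactivator Myocd and the myosin light chain Myl9 had 0 reads in all 4 cultured libraries.

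Vim (chr2:13573927-13582826, plus strand), the vimentin gene, was high and nearly level everywhere. It had 3516, 3116, 3825, 3611, 3185 and 3168 CPM from the Cont skin to the OE-LEC library, and ranked between 12th and 29th per kilobase among 23376 genes. The log2 ratio was -0.23 (-0.25 to -0.21) in skin, -0.04 (-0.06 to -0.03) in BECs and 0.01 (-0.0031 to 0.024) in LECs. With 31162 or more reads per library these intervals were narrow. Between the control libraries the log2 ratio of CPM was -0.26 from the BEC line to LECs and -0.12 from the BEC line to skin. By total counts, the scaling of CPM, the skin pair had a log2 ratio of -0.17, which lay between these values.

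Cdh2 (chr18:16588877-16809246, minus strand), which encodes N-cadherin, was higher in both overexpression pairs by less than 2-fold. The BEC pair had 33.6 CPM in the control and 57.1 CPM with overexpression, a log2 ratio of 0.80 (0.65 to 0.96). The LEC pair had 42.3 and 67.0 CPM, a log2 ratio of 0.68 (0.57 to 0.79). Both overexpression libraries lay above the other 4. In skin it had 27.0 CPM in the control and 31.1 CPM in the library labelled cKO, and the log2 ratio of 0.15 (-0.09 to 0.40) held 0.

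**Figure D2:**
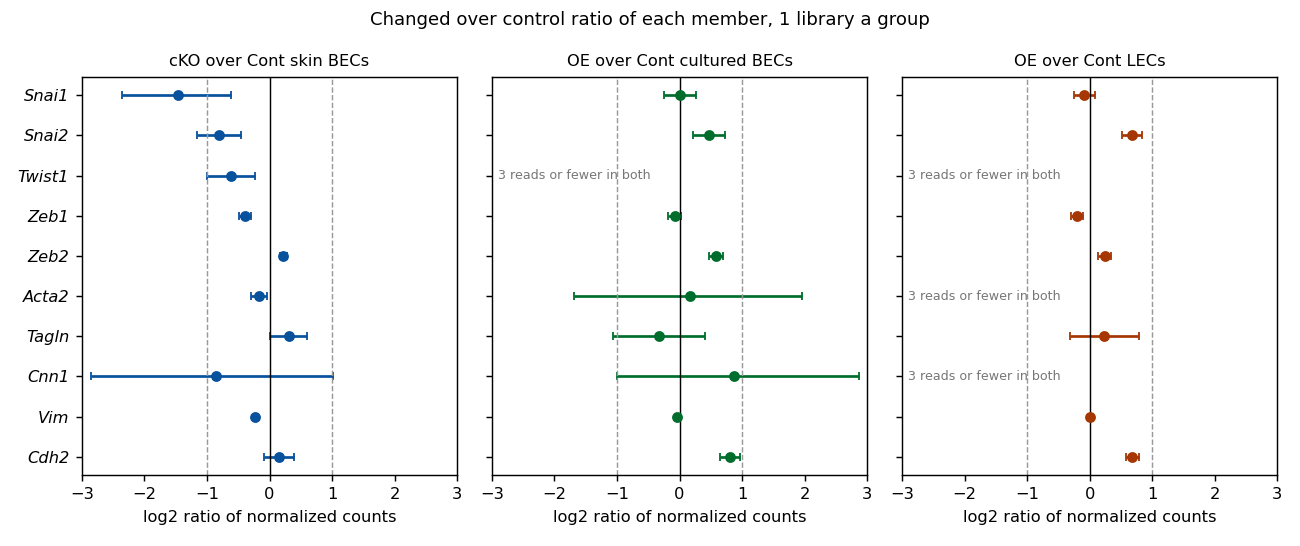
Log2 ratio of normalized counts, changed over control library, of each member (rows) in the 3 pairs (panels), with 95% Clopper-Pearson counting intervals as bars and dashed lines at 2-fold. Snai1 in skin, at -1.46, is the only point past a dashed line, and Snai2, Zeb2 and Cdh2 lie right of 0 in both overexpression panels.

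By fixed limits on fold and count, 1 member was counted in the 3 pairs. A gene was counted at 2-fold when its log2 ratio was past 1 in size and its higher normalized count was at least 20. In skin 0 of the 9 members at that level were past 2-fold higher, against 6.67% of 13638 genes, and 1 was lower, against 3.25%. In BECs 0 of 7 members were past 2-fold in either direction, against 4.33% of genes higher and 5.59% lower, and in LECs again 0 of 7, against 2.26% and 1.56%. By the rule of more than 3-fold with a normalized count of at least 5 (skin) or 3 (culture), no member was counted in any pair, against 7.58%, 13.3% and 4.86% of genes in the skin, BEC and LEC pairs.

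Counting intervals clear of 0 were common among all genes. In skin 2 of the 9 members had an interval above 0 and 6 below it, where 25.0% and 28.3% of genes did. In BECs 3 of 7 were above and 1 below, beside 29.1% and 32.3% of genes. In LECs 3 of 7 were above and 1 below, beside 26.0% and 23.1%. The 3 above 0 were Snai2, Zeb2 and Cdh2 in both culture pairs. The share of all genes above 0 in both of these pairs was not computed, so this overlap has no background beside it. The median log2 ratio of the members with at least 20 normalized counts was -0.23 in skin, 0.01 in BECs and 0.23 in LECs, and that of all genes was -0.01, -0.02 and 0.01.

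Ratios between a pair of genes within 1 library do not depend on the scaling between libraries. Per kilobase, Cdh2 stood at 0.00930 of Cdh5, the vascular endothelial cadherin, in Cont skin (interval 0.00815 to 0.0106) and at 0.0167 in the library labelled cKO (0.0150 to 0.0186). The same ratio was 0.00525 in the control and 0.0155 in the OE library of BECs, and 0.0113 and 0.0186 in the LEC pair. It was thus 1.80-, 2.96- and 1.64-fold higher in the changed library of the 3 pairs, with separate intervals in each, while Cdh5 remained far more abundant in all 6. Cdh5 itself had log2 ratios of -0.70 in skin, -0.76 in BECs and -0.03 in LECs, so in skin most of the shift lay in Cdh5 and in LECs nearly all of it in Cdh2.

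Snai2 over Snai1, per kilobase, was 3.42 in Cont skin and 5.35 in the library labelled cKO, with overlapping intervals of 2.39 to 5.01 and 3.24 to 9.33. In culture it was 0.695 and 0.956 in the BEC pair, again with overlapping intervals, and 0.820 and 1.39 in the LEC pair, with separate ones. Zeb2 over Zeb1 was 1.28 and 1.96 in the skin pair, 0.352 and 0.556 in the BEC pair and 0.404 and 0.549 in the LEC pair, with separate intervals in all 3 pairs. Zeb2 was therefore the more abundant of the Zeb genes per length in skin and the less abundant one in culture. The length was that of all exons of a gene merged, 19942 bases for Zeb2 and 10266 for Zeb1. Before division by length, Zeb2 had more reads than Zeb1 in OE-BECs (1450 and 1342) and OE-LECs (1935 and 1813). In both cultured controls it had fewer.

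**Figure D3:**
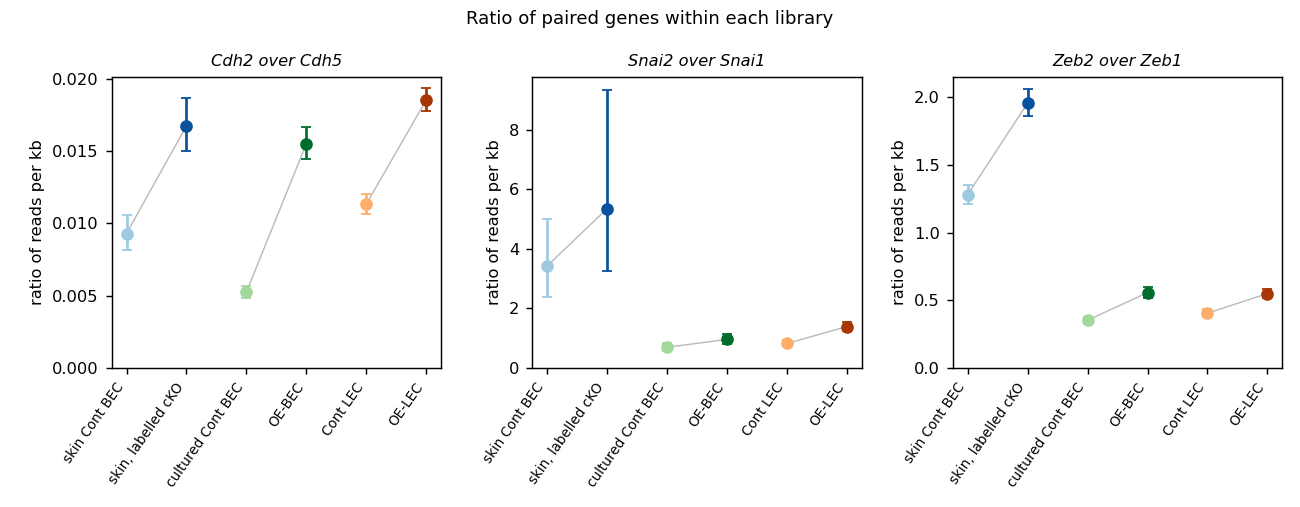
Ratio of reads per kilobase of exon for 3 pairs of genes within each library, with 95% counting intervals as bars and grey lines joining the control and changed library of a pair. Cdh2 over Cdh5 was 1.80-, 2.96- and 1.64-fold higher in the changed libraries, and Zeb2 over Zeb1 1.53-, 1.58- and 1.36-fold.

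Other cell types can carry the members, and their markers differed between the libraries. In bulk RNA, fewer cells of a type and less RNA per cell cannot be told apart. The 12 fibroblast markers summed to 3221 CPM in Cont skin and 2405 CPM in the library labelled cKO, and to 90.5 to 200 CPM in culture, where Col5a1 made up most of the sum and Dcn, Lum and Dpt had 0 to 6 reads. The 10 pericyte and vascular smooth muscle markers summed to 862 and 693 CPM in skin and to 3.05 to 5.10 CPM in culture, with Rgs5 and Kcnj8 at 0 in all 4 cultured libraries. All of the fibroblast and pericyte markers had reads in both skin libraries, the same libraries in which Acta2, Twist1 and Tagln were higher than in culture. All of the listed keratinocyte, macrophage, melanocyte and Schwann markers also had reads in both skin libraries.

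Within the skin pair, 11 of 12 fibroblast markers were lower in the library labelled cKO (median log2 ratio -0.48), as were 8 of the 9 pericyte markers with at least 20 normalized counts (-0.39) and 18 of 20 endothelial markers (-0.62). The lower members Snai1, Snai2, Twist1, Zeb1, Acta2 and Vim moved in the same direction as these 3 lists. The contractile member Tagln did not, at a log2 ratio of 0.31 (0.01 to 0.60), and the intervals of Cdh2 and Cnn1 held 0. In the other direction, 11 of 12 macrophage markers were higher (median 0.71; 4066 and 6370 CPM in sum), as was Zeb2, which macrophages also express. Keratinocyte markers were higher in 9 of 11 (median 0.89; 236 and 411 CPM). In culture the 12 macrophage markers summed to 34.4 to 94.7 CPM. Nearly all of this was Cd68, a lysosomal gene, at 61.8, 32.2, 93.2 and 80.2 CPM beside 61.3 CPM in Cont skin. Csf1r, Mrc1 and Lyz2 had 4 to 40 reads in the cultured libraries, and Adgre1, C1qa, C1qb, C1qc and Cd163 had 0 in all 4. Zeb2 was higher in both overexpression pairs, in which Cd68, and with it the sum of these markers, was lower. Csf1r and Mrc1 had more reads in the OE library of both pairs, and Lyz2 had fewer. The part of these other cells in the ratios of the members was not tested.

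**Figure D4:**
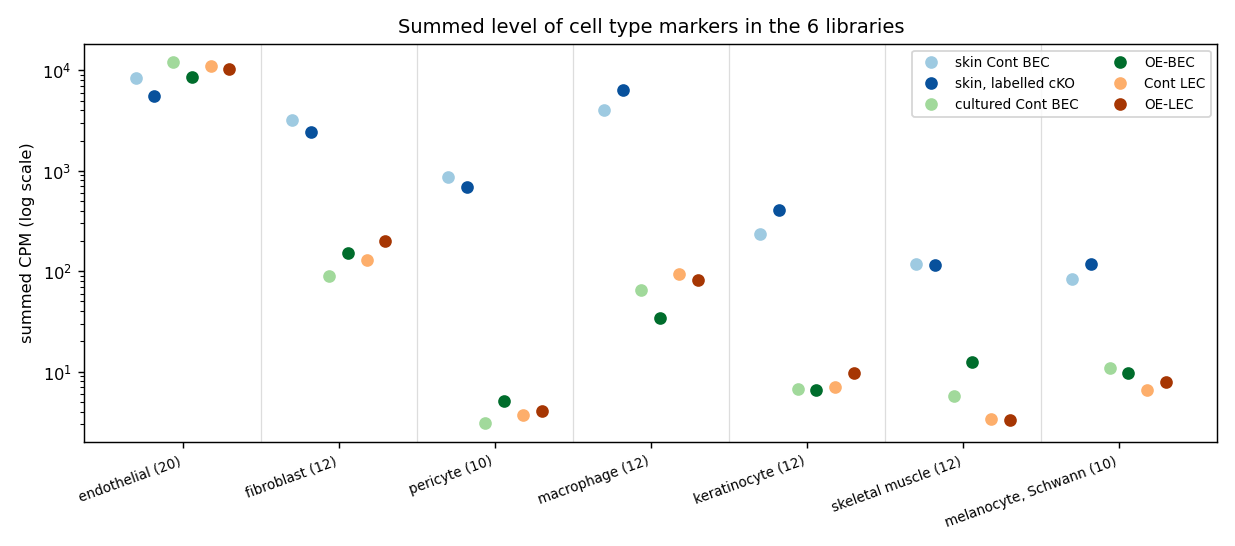
Summed CPM (log axis) of 7 lists of cell type markers in the 6 libraries, with the number of genes per list in brackets and 1 point per library. Fibroblast, pericyte and macrophage markers reached 693 to 6370 CPM in the skin libraries and at most 200 CPM in culture, and endothelial markers summed to 5530 to 12073 CPM.

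Of 19 other regulators of mesenchymal transition, some of which oppose it, more were higher than lower in the culture pairs. Over all genes with at least 20 normalized counts, 6639 of 13638 were higher in skin, 5784 of 11974 in BECs and 6051 of 11858 in LECs. In BECs 10 of the 12 regulators with at least 20 normalized counts were higher and 4 past 2-fold, with a median log2 ratio of 0.41. In LECs 8 of 12 were higher, 2 past 2-fold higher and 1 past 2-fold lower, with a median of 0.17. Hmga2, a chromatin protein that raises Snai1 and Twist1 in other systems, was past 2-fold in both, with log2 ratios of 1.73 (1.67 to 1.80) and 1.11 (1.08 to 1.13). Id3, an inhibitor of basic helix-loop-helix factors, had 1.12 in BECs and 0.73 in LECs. The others past 2-fold had few reads and were named after their values were seen. Grhl2 (1 and 18 reads; log2 ratio 4.55, interval 1.89 to 9.93) and Esrp2 (17 and 28 reads) were higher in BECs, and both are known for keeping cells epithelial, as is Ovol1, which was lower in LECs (20 and 8 reads). Prrx1, a factor of limb and dermal mesenchyme, was higher in LECs (6 and 60 reads). Tcf4, an E protein, was lower in all 3 pairs (-0.74 in skin, -0.65 in BECs and -0.45 in LECs). In skin 8 of 16 were higher and 8 lower, and Foxc1, a forkhead factor of mesenchyme and vessels, was past 2-fold lower at -1.48 (-1.83 to -1.14).

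The 24 further mesenchymal genes gave no single direction. In skin 9 were higher and 15 lower, yet all 4 past 2-fold were higher, and the matrix genes Tnc (2.50), Ctgf (1.92) and Fn1 (1.39) had the largest log2 ratios. The other 1 was Tgfbi. In BECs 5 of 13 were past 2-fold higher, among them S100a4, Cyr61 and Cd44, and 2 were past it lower (Tgfbi and Tnc), and in LECs S100a4 was past it higher and Tgfbi lower. S100a4, a calcium-binding protein often used to mark fibroblasts, had log2 ratios of 2.11 (1.63 to 2.62) in BECs and 2.96 (2.83 to 3.10) in LECs. Tgfbi, a matrix protein induced by TGF-beta, had -2.80 and -1.52 in the same pairs and 1.10 in skin. Of the 21 further contractile and SRF-related genes, 1 was past 2-fold lower in skin (Des, -1.16), 1 higher (Tagln2, 1.13) and 1 lower (Cald1, -1.19) in BECs, and none in LECs.

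Endothelial genes were mostly lower in every pair. Of 20, 18 were lower in skin, 16 in BECs and 15 in LECs, with medians of -0.62, -0.41 and -0.27. None was past 2-fold in skin, where Kdr, the main VEGF receptor, came closest at -0.998. In BECs 6 were past 2-fold lower, led by Vwf (-2.18), Sox18 (-2.16) and Flt1 (-2.14), and in LECs 4, led by Vwf (-1.89), Sox18 (-1.66) and the junction gene Cldn5 (-1.38). Of the 5 cadherin genes listed beside Cdh2, Cdh13, which endothelium expresses, was past 2-fold lower in skin at -1.37 (-1.55 to -1.19), with -0.39 in BECs and 0.19 in LECs, and no other was past 2-fold in a pair. Among the 23 genes of TGF-beta ligands, receptors and Smads, 2 were past 2-fold higher in skin (Bmp6, 2.28, and Bmp4, 1.14). In BECs Bmp4 was past 2-fold higher (1.02) and Tgfb3 lower (-3.08), and in LECs only Smad1 was past it, at -1.02.

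For each member with at least 10 CPM in a library, the genes with the most similar profile over the 6 libraries were sought among 11045 genes, by the root mean square (RMS) difference of centered log2(CPM + 1) values. Closest to Acta2 was Col14a1 (0.0586), a collagen gene with 105 and 101 CPM in skin and at most 0.502 CPM in culture, followed by the matrix proteoglycan Bgn (0.151). Zeb1 was closest to Kat6b (0.0586), Vim to Adat1 (0.0476), Tagln to Tbc1d2b (0.0863), and Snai2 to Spsb1 (0.106). Cdh2 was closest to Shb (0.136), Snai1 to Cdc42ep1 (0.141), Twist1 to Gprin3 (0.141), and Zeb2 to Myom1 (0.145). The 6 libraries came from 3 sources, so these profiles share the steps between sources.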

How the data were processed

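Libraries were made with the ScriptSeq v2 kit from pooled RNA. The authors trimmed reads with skewer v0.2.2, aligned them to mm10 with STAR v2.7.9a and counted them per gene with VERSE v0.1.5. They deposited raw counts per gene symbol for 6 libraries, which were used as deposited.

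CPM was the count over the library total, with exact Poisson intervals. For each pair, counts were divided by median-of-ratios size factors (DESeq2 1.42.0), and the log2 ratio was given an exact Clopper-Pearson interval from the reads of the pair. With 1 library a group no test was run. Intervals at 95% and the limit of 3 reads for a count of 0 cover counting error only. Exon lengths and overlaps came from GENCODE M21, which named 23376 of 24421 genes, and promoter sequences from RefSeq. Alternatives were TMM (edgeR 4.0.16), total counts, other size factors, CPM without ribosomal RNA reads, no minimum count and a pseudocount of 1. The scripts were tested on simulated data.

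Named genes were all 10 members and, of each other list, the 3 largest log2 ratios in a pair among genes with at least 100 normalized counts, plus Dot1l and genes a result turned on. Members, lists and tests were chosen with earlier results of these data known. Prox1, Lyve1, Flt4, Pdpn, Zeb2os and Pcsk7 were named after their values were seen. So were, where outside this rule, the remaining genes counted past 2-fold, and Myocd, Myl9 and the single markers named at 0 reads. Not every gene that the rule selects is printed, and 1 listed gene is not reported here.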

Additional observations from a re-analysis of the deposited data

How the results depend on the processing

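The single skin member past 2-fold (Snai1) was the same under 4 other scalings and without a minimum count, but with the call limited to counting intervals wholly past 2-fold the count was 0. In the LEC pair, dropping the minimum count gave 2 members past 2-fold and 1 past 3-fold (Acta2 with 2 and 1 reads, Cnn1 with 0 and 1), since it admits genes with almost no reads. Of 130 alternative values of 26 log2 ratios of members, 7 moved beyond the counting interval and 2 changed sign with total counts, Snai1 in OE-BECs from 0.01 to -0.03 and Vim in OE-LECs from 0.01 to -0.01, neither past 2-fold. No scaling shifted a pair by more than 0.0605 on the log2 scale. Of 120 alternative levels (CPM without ribosomal RNA reads, or median of ratios over all 6 libraries), 21 moved, at most 1.12-fold. No paired analysis was possible because each group has 1 library, and for the same reason no library could be left out. Depth limits Cnn1 everywhere, and Acta2 and Twist1 in culture.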

Other observations

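A few listed genes differed between the pairs. They were picked for this after their values were seen, although the rule for named genes also selects each of them in at least 1 pair. Prrx1, which had 6 and 60 reads in the LEC pair, had a log2 ratio of 3.09 there (counting interval 1.89 to 4.59), but 4 and 0 reads in the BEC pair. Pdgfra, a receptor that marks fibroblasts, was at log2 ratios of 0.93 (0.32 to 1.56) in the BEC pair and 1.48 (1.24 to 1.72) in the LEC pair. Ctgf, which TGF-beta and mechanical signals induce, had 1.80 in the BEC pair and 0.30 in the LEC pair. Tnc had 2.50 in the skin pair, -1.12 in the BEC pair and 0.25 in the LEC pair. These are ratios of 1 library over 1 library, and differences between pairs were not tested.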
